A study of Homo sapiens with 4 samples.

Results

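EDA2R and GDF15, a pair of genes that p53 is known to activate, were described in A375 cells with and without p53, beside EDA and EDAR, the ligand and the other receptor of the EDA2R pathway. These 4 genes are 4 of the 26484 gene symbols measured. EDA2R and GDF15 were chosen by their low values in the p53 knockout libraries of this same comparison, so their values are a description and carry no test. EDA and EDAR were taken as pathway members. A375 is a human melanoma cell line, and poly(A)-selected RNA was sequenced from 2 libraries of a CRISPR-Cas9 p53 knockout of this line (p53-/-) and from 2 libraries of the parental line, which is wild type for p53. Library numbers (2 and 8 for the knockout, 1 and 2 for the parental line) follow the column names. Nothing in the labels tells separate cultures or clones from repeat libraries, and p-values therefore measure only the spread between these libraries, which may be technical. An edited line with p53 intact was not analysed here, so loss of p53 cannot be told apart from editing and selection of the cells.

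EDA2R (also called XEDAR) is a receptor of the tumour necrosis factor receptor superfamily. Its ligand is ectodysplasin, the product of EDA, whose transcripts are spliced into forms that differ by a pair of residues: EDA-A1 binds EDAR and EDA-A2 binds EDA2R. EDAR acts through the adaptor EDARADD, EDA2R through TRAF adaptors, and both can switch on NF-kB. GDF15 is a secreted stress cytokine, distantly related to the TGF-beta family; it is cut from its precursor by furin-like proteases and signals through GFRAL with RET as co-receptor in the hindbrain, where it lowers food intake. Besides p53, the transcription factors ATF4 and CHOP (DDIT3) of the integrated stress response induce it.

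EDA2R lies on the minus strand of chromosome X (chrX:66595637-66639298) and EDA on the plus strand of the same chromosome (chrX:69616067-70039469), in GENCODE 29 on GRCh38. GDF15 is on the plus strand of chromosome 19 (chr19:18374731-18389176) and EDAR on the minus strand of chromosome 2 (chr2:108894471-108989372). RefSeq promoter windows, running from 250 bases before to 50 bases after an annotated start on GRCh38.p14, were found for 2 of the 4 genes. They are shown because both genes are classed as p53 targets and were low together. The GDF15 window is chr19:18385908-18386207 on the plus strand and the EDA2R window chrX:66639220-66639519 on the minus strand, printed 5′ to 3′ with motif matches in capitals.
GDF15: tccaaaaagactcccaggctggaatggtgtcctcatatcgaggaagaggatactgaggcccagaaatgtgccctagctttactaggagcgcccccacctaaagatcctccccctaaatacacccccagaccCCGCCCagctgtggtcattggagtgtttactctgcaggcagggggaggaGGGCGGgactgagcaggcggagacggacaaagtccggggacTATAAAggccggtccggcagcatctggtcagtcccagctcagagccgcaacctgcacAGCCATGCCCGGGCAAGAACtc
EDA2R: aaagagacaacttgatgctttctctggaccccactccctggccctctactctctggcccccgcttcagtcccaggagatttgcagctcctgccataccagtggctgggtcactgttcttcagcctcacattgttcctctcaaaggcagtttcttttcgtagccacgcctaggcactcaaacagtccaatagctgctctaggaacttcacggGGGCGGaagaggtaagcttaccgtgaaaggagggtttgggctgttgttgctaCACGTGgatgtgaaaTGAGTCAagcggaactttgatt
In the GDF15 window the capitals mark, in order, a GC box on the opposite strand (119 to 114 bases before the start), a second GC box (70 to 65 before), a TATA box (29 to 24 before) and a p53 site at bases 29 to 48 after the start. The p53 site is 2 adjoining half-sites of the p53 consensus with both cores intact and 3 mismatches, the most that were allowed; 0.427% of 35116 promoter windows of this length held such a match. In the EDA2R window they mark a GC box (39 to 34 before the start), an E-box (14 to 19 after) and an AP-1 site (29 to 35 after), with no p53 site by this rule, which says only that these letters are not in this window. Motifs were searched on both strands as TATAAA for the TATA box (in 11.5% of windows), GGGCGG for the GC box (44.95%), TGANTCA for the AP-1 site (7.71%), CACGTG for the E-box (7.26%) and TGATGNAA for the CHOP-ATF4 element (3.62%, with no match in either window). No motifs overlapped in the windows shown. A second RefSeq start of EDA2R, whose window overlaps the one shown, held 6 GC boxes. The motifs were picked after these sequences had been read, so the shares of windows are no test of a match. A match is a description of the letters, not evidence of binding.

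EDA2R had 16.8 and 42.0 normalized counts in knockout libraries 2 and 8, against 252 and 249.99 in parental libraries 1 and 2. A normalized count is a read count divided by 1 factor per library, so it compares libraries within a gene. Both knockout libraries lay far below both parental ones, and the parental libraries were nearly equal. The values rest on 16 and 43 reads in the knockout libraries and 230 and 285 in the parental libraries. EDA2R transcripts averaged 29.4 ± 17.8 in the knockout and 251 ± 1.55 in the parental group (SD, n = 2 each), or 8.54-fold lower in the knockout. The log2 fold change was -3.19 ± 0.46 (SE of limma, on log2 of the normalized count plus 1). Knockout library 2 kept 6.71% of the parental mean and knockout library 8 kept 16.7%, and their exact Poisson 95% intervals, 9.62 to 27.3 and 30.4 to 56.6 normalized counts, did not overlap. Such intervals hold only the error of counting reads, not the spread between cultures. PCR copies of a molecule cannot be recognised here, so even that error may be understated. In bulk RNA, fewer cells that express a gene and less RNA per cell cannot be told apart.

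GDF15 had 24.2 and 31.3 normalized counts in knockout libraries 2 and 8, against 112 and 78.9 in parental libraries 1 and 2. Here too both knockout libraries lay below both parental ones, but it was the parental libraries that differed more in absolute level. Reads numbered 23 and 32 in the knockout libraries and 102 and 90 in the parental libraries. GDF15 transcripts averaged 27.7 ± 4.98 in the knockout and 95.4 ± 23.3 in the parental group (SD, n = 2 each), 3.44-fold lower in the knockout, with a log2 fold change of -1.74 ± 0.31. In percent of the parental mean, knockout library 2 held 25.4% and knockout library 8 held 32.8%. The Poisson 95% intervals of these knockout libraries, 15.3 to 36.3 and 21.4 to 44.1, overlapped, so a difference between them was not detectable at this depth. The lower bound of parental library 2, 63.5, lay above both knockout intervals.

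EDA, the ligand gene, was close to the detection limit in every library, with 9.47 and 11.7 normalized counts in knockout libraries 2 and 8 and 3.29 and 7.89 in parental libraries 1 and 2. Those counts rest on 9 and 12 reads in the knockout and 3 and 9 in the parental libraries. The groups did not overlap, yet the Poisson intervals did, 4.33 to 17.98 in knockout library 2 against 3.61 to 14.99 in parental library 2. EDA missed the low-count filter of 10 normalized counts in at least 2 libraries. Fitted without that filter its log2 fold change was 0.90 ± 0.53 (limma adjusted p = 0.612). The table counts whole genes, so the EDA-A1 and EDA-A2 forms cannot be told apart. EDAR had 0 reads in all 4 libraries. Over 128057480 reads, a count of 0 allows up to 3 reads, or 0.0234 RPM (reads scaled to the total of the libraries), and a level of EDAR below that cannot be seen. Of these 2 receptors for ectodysplasin, EDA2R was the one detected, at 0.527 and 1.34 RPM in knockout libraries 2 and 8, against 7.87 and 7.84 in parental libraries 1 and 2. MIR676, a microRNA gene within EDA, and MIR3189, one within GDF15, are listed at 0 in all libraries, which were made from poly(A) RNA.

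**Figure D1:**
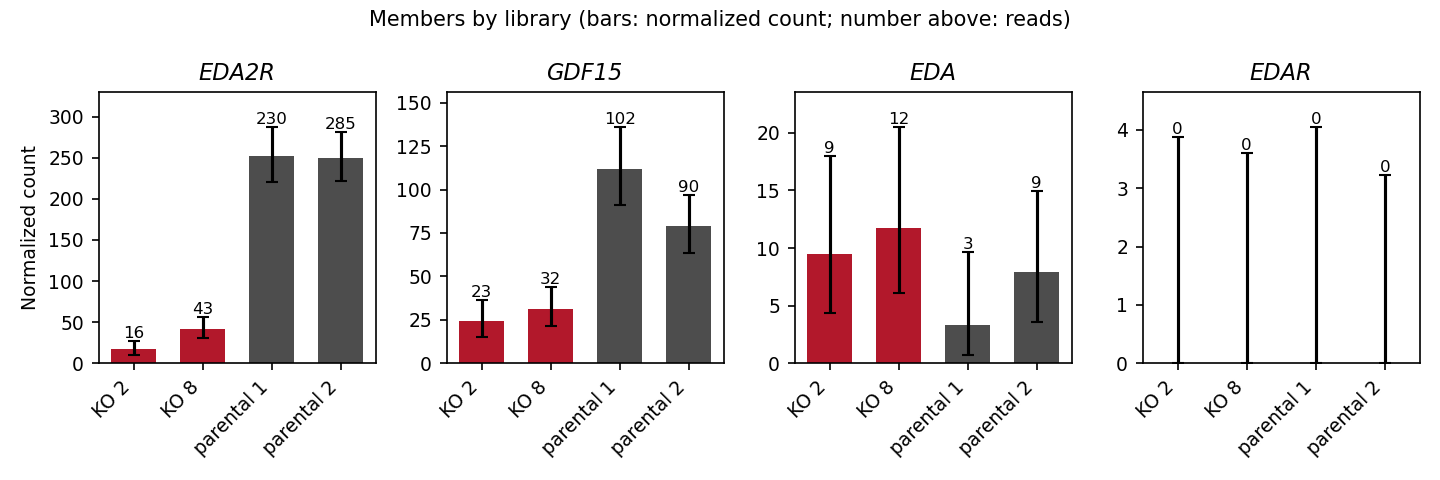
Normalized counts of EDA2R, GDF15, EDA and EDAR (linear y axes, one scale per gene) in knockout (KO) libraries 2 and 8 and parental libraries 1 and 2. Bars are single libraries, error bars are exact Poisson 95% intervals of the reads and numbers above are reads; EDA2R has 16 and 43 reads in the knockout against 230 and 285, while EDA stays at 12 reads or fewer and EDAR at 0.

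Per kilobase of exon, EDA2R stood 17th of 29 receptors of the tumour necrosis factor superfamily in the knockout group and 15th in the parental group, with 8.22 and 70.2 normalized counts per kb. Its neighbours in the parental order were NGFR, the p75 neurotrophin receptor, at 52.9 in the knockout and 75.5 in the parental group, and TNFRSF14, at 33.5 and 47.2. Far above stood TNFRSF12A, the TWEAK receptor, at 2485 and 2261, and TNFRSF1A, the main TNF receptor, at 1389 and 1519. Exon length is that of all annotated exons together and understates genes with long unused exons.

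Over the whole table, limma called 0 of 15431 tested genes at an adjusted p of 0.05 (0% of genes, smallest adjusted p 0.121), while 950 were lower and 903 higher before adjustment (p under 0.05). With edgeR's quasi-likelihood test on recovered reads the calls were 0 as well (921 lower and 946 higher before adjustment). DESeq2 on the same reads called 200 genes lower, 1.22% of the 16330 with an adjusted p, and 198 higher, 1.21%. Leaving out 1 knockout library, so that the spread rests on the parental pair, limma called 1587 lower and 1309 higher without library 2 and 2602 lower and 2421 higher without library 8. Genes below are therefore given by their values, and a call is one by DESeq2 alone. Both knockout libraries lay below both parental ones in 23.7% of tested genes and above them in 22.8%. By log2 fold change EDA2R ranked 19th and GDF15 99th from the lowest of all 15431 tested genes, and 5th and 36th of the 13240 with a mean of at least 50 normalized counts.

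Genes of the intracellular arm of the EDA pathway were expressed in both groups, and DESeq2 called several of its NF-kB genes higher in the knockout. The EDA signalling list holds 23 genes other than EDA2R, among them EDA itself and the receptors EDAR and TNFRSF19, and 21 were tested. In 5 of these 21 genes (23.8%, against 23.7% of all tested genes) both knockout libraries lay below the parental pair. In 8 (38.1%, against 22.8%) both lay above it. Their median log2 fold change was 0.09, against -0.01 over all tested genes, and it was 0.058 without knockout library 2 and 0.139 without knockout library 8. DESeq2 called 4 of these 21 genes higher and 1 lower, where over all genes it called 1.21% higher and 1.22% lower. EDARADD, the EDAR adaptor, had 370 and 263 normalized counts in knockout libraries 2 and 8, against 295 and 276 in parental libraries 1 and 2, and the groups overlapped. TRAF6, an adaptor reported for EDA2R, had 421 and 605 in the knockout against 526 and 561 in the parental libraries, again overlapping. TRAF3, another such adaptor and a brake on the noncanonical NF-kB pathway, had 3011 and 2307 against 2127 and 2160 (limma adjusted p = 0.501).

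Of the called genes, TRAF5, an adaptor of several receptors of this superfamily, was lower at 1423 and 1378 normalized counts in the knockout against 1935 and 1941 in the parental libraries (DESeq2 adjusted p = 0.0280, limma 0.235). The other called members are NF-kB subunits or an inhibitor of NF-kB that it induces itself. NFKB2 had 8982 and 9106 against 6992 and 6536 (DESeq2 adjusted p = 0.0232, limma 0.258). RELB had 2443 and 2412 against 1798 and 1699 (DESeq2 adjusted p = 0.0210, limma 0.234). NFKB1 and NFKBIA were called higher as well, with log2 fold changes of 0.41 and 0.52. The noncanonical kinase MAP3K14 (NIK) did not part the groups, at 621 and 524 in the knockout against 564 and 617 in the parental libraries. Among 29 target genes of NF-kB, 28 were tested. In both knockout libraries 15 lay above the parental pair (53.6%, against 22.8% of all tested genes) and 3 below it (10.7%, against 23.7%). DESeq2 called 9 higher and 0 lower, where over all genes it called 1.21% higher and 1.22% lower. The median log2 fold change was 0.42, against -0.01 over all tested genes. The called targets include NFKB1, NFKB2, NFKBIA and RELB, which also stand in the EDA signalling list. CCL2, a monocyte chemokine, had 1556 and 2230 in the knockout against 667 and 690.3 in the parental libraries (DESeq2 adjusted p = 2.8e-08, limma 0.197). CXCL8, a neutrophil chemokine, had 29465 and 21814 against 12830 and 11149 (DESeq2 adjusted p = 3.6e-06, limma 0.230). IER3, an early response gene, and IL1B, a cytokine, were also called, with log2 fold changes of 0.65 and 1.496. PTGS2, the prostaglandin synthase COX-2, had 6180 and 1248 against 667 and 475 (DESeq2 adjusted p = 0.203), and the knockout libraries were far apart. ICAM1, an adhesion molecule, overlapped between groups, at 13217 and 15936 against 13588 and 12042.

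Among the other tested receptors of the superfamily, the lowest log2 fold change was far less low than that of EDA2R. EDA2R was chosen for its low values, so its place is a description. Of the other 28 receptors, 20 were tested. In both knockout libraries 3 were lower (15%, against 23.7% of all tested genes) and 4 higher (20%, against 22.8%). The median log2 fold change was -0.02, and log2 fold changes of those tested ran between -0.62 for NGFR and 1.05 for TNFRSF11B. The median changed sign with the libraries used, at 0.034 without parental library 1 and -0.053 without parental library 2, and was -0.0054 without knockout library 2 and -0.0083 without knockout library 8. DESeq2 called 2 higher and 0 lower, where over all genes it called 1.21% higher and 1.22% lower. FAS, a death receptor that p53 is known to induce, had 1062 and 816 normalized counts in knockout libraries 2 and 8, against 488 and 500.0 in the parental libraries (DESeq2 adjusted p = 0.00156, limma 0.238). TNFRSF11B, osteoprotegerin, had 766 and 1661 against 550 and 537 (DESeq2 adjusted p = 0.0492, limma 0.399). The knockout libraries lay far apart for it. TNFRSF10B, the TRAIL receptor DR5 and another p53 target, had 6164 and 5084 against 5036 and 5041 (limma adjusted p = 0.639). TNFRSF19 (TROY), a close relative of EDA2R and EDAR, had 3097 in knockout library 2 and 4254 in knockout library 8, against 4687 and 4290.1 in the parental libraries; it is counted in the EDA signalling list too. Of 18 ligands of the tumour necrosis factor family, EDA included, 8 were tested, with no DESeq2 call. Both knockout libraries were lower for 3 of these ligands (37.5%, against 23.7% of all tested genes) and higher for 2 (25%, against 22.8%). Set against the parental mean, their median log2 ratio came to 0.45 for knockout library 2 and -0.28 for library 8. CD70, the ligand of CD27, had 1085 and 1561 against 1852 and 1768, and TNFSF9, the ligand of 4-1BB, had 163 and 368 against 479 and 455 (limma adjusted p = 0.434 and 0.462). TNFSF14 (LIGHT) had 216 in knockout library 2 and 34.2 in knockout library 8, against 27.4 and 28.1 in parental libraries.

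**Figure D2:**
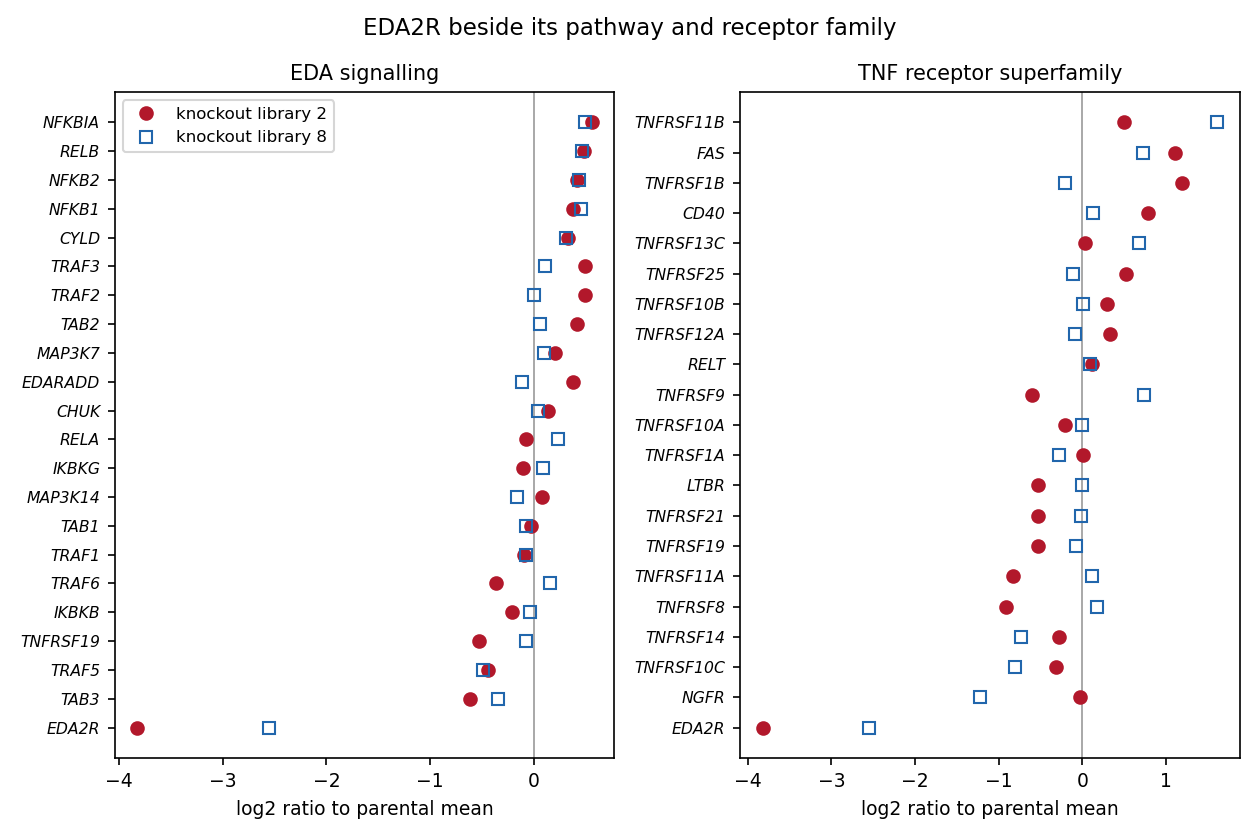
Log2 ratio of each knockout library to the parental mean (x axis) for tested genes of EDA signalling (left) and of the TNF receptor superfamily (right), filled circles for knockout library 2 and open squares for knockout library 8. EDA2R lies at -3.82 and -2.55, while the other receptors lie between -1.22 (NGFR, knockout library 8) and 1.61 (TNFRSF11B, knockout library 8).

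GDF15 belonged to a pathway whose receptor was not seen in these cells. GFRAL had 0 reads in all 4 libraries, and RET, its co-receptor, had 9 and 4 reads in the knockout against 1 and 3 in the parental libraries. Of 11 genes for the receptor and for processing, 6 were tested. Both knockout libraries were lower for 2 and higher for 2 (33.3% each, against 23.7% and 22.8% of all tested genes). The median log2 fold change was -0.30. That median rested on knockout library 8: the median log2 ratio was 0.019 in library 2 and -0.44 in library 8, and edgeR and DESeq2 gave medians of -0.175 and -0.173. PCSK6 (PACE4), a convertase of the furin family, had 76.8 and 141 normalized counts in knockout libraries 2 and 8, against 315 and 313 in parental libraries 1 and 2 (log2 fold change -1.58 ± 0.32, DESeq2 adjusted p = 0.00341, limma 0.261). It was the 1 gene of the 6 tested that DESeq2 called, where over all genes it called 1.22% lower and 1.21% higher. PCSK5, a related convertase, had 163 and 122 against 230 and 218 (limma adjusted p = 0.366). FURIN itself had 9834 and 7049 against 5830 and 6109 (limma adjusted p = 0.401). MMP14, a membrane protease known to cleave GFRAL, had 4486 and 6223 against 6340 and 6174, and its groups overlapped.

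Among other known regulators of GDF15, DESeq2 called 1, where over all genes it called 1.21% higher and 1.22% lower. Of 15 regulators listed, all tested, 8 lay above the parental pair in both knockout libraries (53.3%, against 22.8% of all tested genes). Below it lay 2 (13.3%, against 23.7%). The median log2 fold change was 0.12, or 0.044 without knockout library 2. ATF4, the main effector of the integrated stress response, had 7932 and 7766 normalized counts in the knockout against 7575 and 7491 in the parental libraries (log2 fold change 0.06 ± 0.07, limma adjusted p = 0.768). DDIT3 (CHOP) had 570 and 580 against 671 and 553, and ATF3, a stress-induced partner, 97.9 and 87.9 against 78.9 and 93.0. EGR1, an immediate early factor reported to induce GDF15, had 3422 and 3298 against 3306 and 3015. JUN, an AP-1 subunit, had 1008 and 1601 against 421 and 474 and was called higher (DESeq2 adjusted p = 3.6e-06, limma 0.228). Among 28 target genes of ATF4 other than GDF15, 26 were tested. Both knockout libraries lay above the parental pair in 11 (42.3%, against 22.8% of all tested genes) and below it in 3 (11.5%, against 23.7%). DESeq2 called 0, and the median log2 fold change was 0.12. Before adjustment, limma put 5 of the 26 higher and 2 lower at p under 0.05. Over all 15431 tested genes it put 903 higher and 950 lower. SLC7A5, an amino acid transporter, had 8893 and 7742 against 5796 and 6302 (DESeq2 adjusted p = 0.0540, limma 0.282). CEBPG, a partner of ATF4, had 1432 and 1378 against 962 and 1148 (limma adjusted p = 0.330). XPOT, which exports transfer RNA, and SHMT2, an enzyme of one-carbon metabolism, overlapped between groups, with log2 fold changes of 0.04 and -0.01. SESN2, which both ATF4 and p53 induce, had 447 and 393 against 542 and 579 (limma adjusted p = 0.363).

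In the ligand family, GDF15 stood 13th of 33 genes per kilobase of exon in the knockout group and 10th in the parental group, at 13.3 and 45.7 normalized counts per kb. TGFB1, at 1663 and 1465, and INHBA, the activin A subunit, at 1611 and 1520, were far higher. Of the other 32 ligands, 15 were tested. In both knockout libraries 1 was lower (6.67%, against 23.7% of all tested genes) and 7 higher (46.7%, against 22.8%). The median log2 fold change was 0.12, against 0.195 without parental library 1, 0.049 without parental library 2, 0.196 without knockout library 2 and 0.067 with a minimum of 1 CPM. GDF11, a close relative of myostatin, was the lower one at 2566 and 3091 against 3580 and 3738 (limma adjusted p = 0.352). BMP2, a bone morphogenetic protein, had 1382 and 1070 against 703 and 737 and was the 1 ligand DESeq2 called (adjusted p = 0.00983, limma 0.259). Over all genes DESeq2 called 1.21% higher and 1.22% lower. BMP7 had 237 and 161 against 133 and 154 (limma adjusted p = 0.544).

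**Figure D3:**
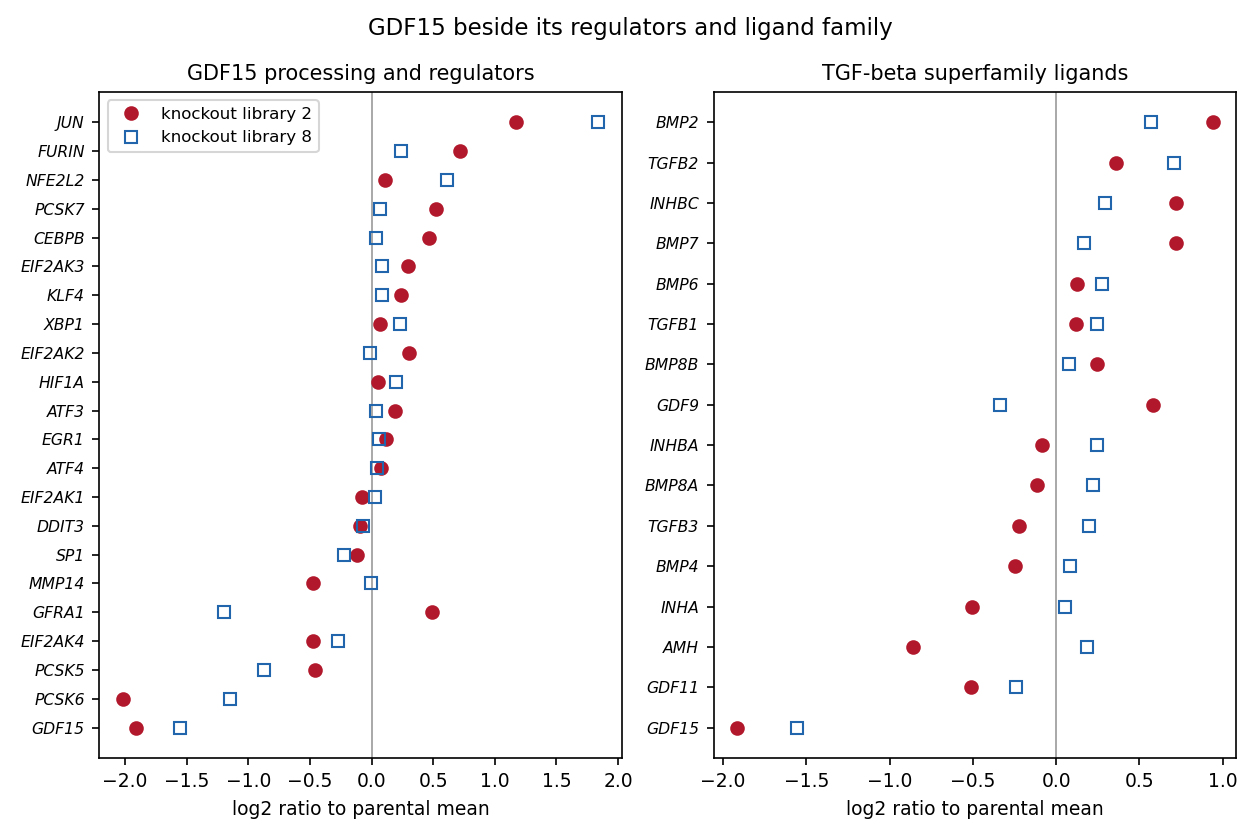
Log2 ratio of each knockout library to the parental mean (x axis) for GDF15 with tested genes of its processing and regulation (left) and with tested ligands of the TGF-beta superfamily (right), filled circles for knockout library 2 and open squares for knockout library 8. GDF15 lies at -1.91 and -1.56, and JUN and ATF4 have log2 fold changes of 1.51 and 0.06.

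Set among 58 other genes that p53 is known to activate, EDA2R and GDF15 were at the low end of a list with DESeq2 calls in both directions. They were chosen for their low values, so their places in the list are a description. Of the 52 tested, 23 were lower in both knockout libraries (44.2%, against 23.7% of all tested genes) and 11 higher (21.2%, against 22.8%). The median log2 fold change was -0.11, against -0.01 over all tested genes. DESeq2 called 8 lower and 3 higher, where over all genes it called 1.22% lower and 1.21% higher. FAS (already given among the receptors) was one of the higher. With EDA2R and GDF15 added, EDA2R was the lowest of 54 by the limma fit and GDF15 the third lowest, just after TRIM22. The log2 fold changes of TRIM22 and GDF15 were -1.75 ± 0.71 and -1.74 ± 0.31 in that fit, and -1.59 and -1.78 by DESeq2, so their order turned. TRIM22, an interferon-inducible antiviral protein, had only 16.8 and 3.91 normalized counts in the knockout against 25.2 and 36.8. BTG2, an antiproliferative gene, followed with 190.5 and 282 against 587 and 527 (log2 fold change -1.26 ± 0.23, DESeq2 adjusted p = 0.000976, limma 0.248). DDB2, a DNA damage sensor, had 1019 and 1138 against 2094 and 2126 (DESeq2 adjusted p = 3.5e-08, limma 0.169). TP53INP1, a stress-induced gene, had 210.5 and 221 against 441 and 389 (DESeq2 adjusted p = 0.00417, limma 0.218). CCNG1, cyclin G1, was called lower as well, at 5070 and 4882 against 6997 and 6572 (DESeq2 adjusted p = 0.0149, limma 0.243). LIF, a cytokine, was called higher, at 14686 and 9841 against 7211 and 6889 (DESeq2 adjusted p = 0.0139, limma 0.315). TGFA, a growth factor, had 11618 and 14628 against 17413 and 14988 (limma adjusted p = 0.502). CDKN1A, the cell cycle inhibitor p21, had 4898 and 2603 in knockout libraries 2 and 8, on either side of 3561 and 3889 in the parental libraries. For MDM2, whose product marks p53 for degradation, the values were 4325 and 4111 against 4359 and 4775 (limma adjusted p = 0.639). PHLDA3, an inhibitor of AKT, likewise parted the knockout libraries, at 6137 and 1678 against 3463 and 3296.

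**Figure D4:**
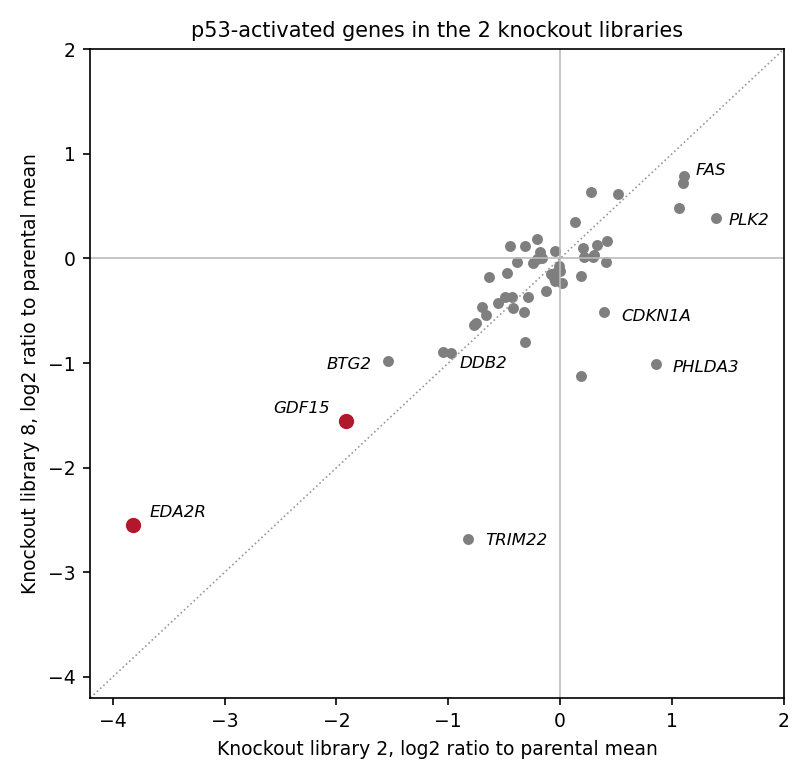
Log2 ratio to the parental mean in knockout library 2 (x axis) and knockout library 8 (y axis) for 54 tested p53-activated genes; each point is a gene, EDA2R and GDF15 are the larger points, and the dotted line marks equal ratios. EDA2R and GDF15 lie low in both libraries, and CDKN1A and PHLDA3 lie on opposite sides of 0 in the 2 libraries.

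Each gene was set beside its tested neighbours on the chromosome. Around EDA2R, 10 tested genes on each side had a median log2 ratio to the parental mean of -0.14 in knockout library 2 and 0.15 in knockout library 8, against -3.82 and -2.55 for EDA2R. Relative to those medians EDA2R stood at -3.68 in knockout library 2 and at -2.70 in knockout library 8. MSN (moesin), the nearest tested gene on the side of lower coordinates, had ratios of 0.27 and 0.12 in knockout libraries 2 and 8. The window is wide, chrX:57906708-70290514.

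Around GDF15 the neighbours were lower in knockout library 2 than in library 8. Their median log2 ratio was -0.31 in knockout library 2, with 15 of 20 below 0, and -0.04 in knockout library 8, with 11 of 20 below 0. Relative to these neighbours GDF15 stood at -1.60 in knockout library 2 and -1.52 in knockout library 8, against -1.91 and -1.56 relative to the parental mean alone. PGPEP1, a peptidase gene just upstream, had ratios of -0.55 and 0.19 in libraries 2 and 8, and SSBP4, just downstream, -0.55 and -0.38. JUND, an AP-1 subunit 3 places upstream, had -0.89 and -0.19. Whether the lower neighbourhood in knockout library 2 has a part in the GDF15 value was not tested.

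**Figure D5:**
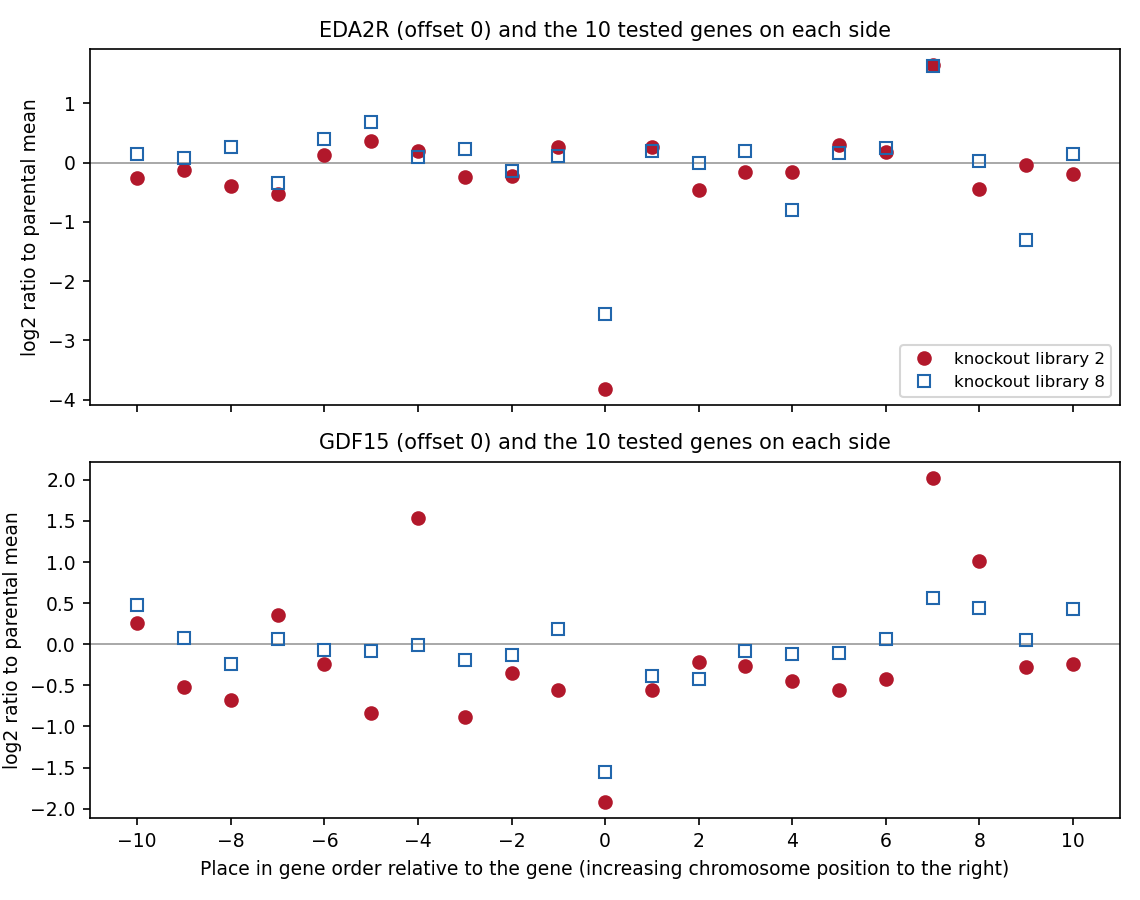
Log2 ratio to the parental mean (y axis) for EDA2R (top) and GDF15 (bottom) at offset 0 and for the 10 tested genes on each side in chromosome order (x axis, places), filled circles for knockout library 2 and open squares for knockout library 8. EDA2R lies at -3.82 and -2.55 and GDF15 at -1.91 and -1.56, and 15 of the 20 GDF15 neighbours lie below 0 in knockout library 2.

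The genes most like each member were found by the distance between profiles of log2 values, centred on the parental mean, over the 4 libraries, among 13239 other tested genes with a mean of at least 50. Closest to EDA2R were PTCHD4 (distance 1.13), GAS6-AS1 (1.25), ITGA10 (1.33), ARHGAP20 (1.35) and TMPRSS15 (1.40). PTCHD4 had 17.9 and 30.3 normalized counts in knockout libraries 2 and 8, against 141 and 121 in the parental libraries. As for EDA2R, each of these 5 was lower in knockout library 2 than in library 8. GDF15 had closer matches, ITIH6 at a distance of 0.189, then PLAC8 (0.346), NEBL (0.380), KIAA1755 (0.428) and KIF26B (0.430). ITIH6 had 110.5 and 133 in the knockout against 489 and 386 in the parental libraries, and so shared with GDF15 the higher value in parental library 1. At a distance of 2.18, GDF15 was the 23rd closest gene to EDA2R, and EDA2R the 2228th closest to GDF15. These genes were picked by closeness over the same 4 libraries, so a like order of libraries is part of that choice. With 4 libraries these distances describe the libraries and give no sign of shared control.

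Depth and identity of the libraries bear on all of these values. Reads totalled 30334054 and 32160978 in knockout libraries 2 and 8, and 29230554 and 36331894 in parental libraries 1 and 2. Chi-square per degree of freedom between libraries was 61.6 in the knockout pair and 5.57 in the parental pair, so no library was a copy of its partner. Of 8 melanocytic markers, SOX10 was high in every library (28125 and 25662 in the knockout, 30033 and 29587 in the parental libraries), while MLANA and TYR were at 0 throughout. MITF had 849 and 1050 against 1645 and 1562 (DESeq2 adjusted p = 0.00272). Of the 4 melanocytic markers tested, both knockout libraries were lower for 3 (75%, against 23.7% of all tested genes). They were higher for 1 (25%, against 22.8%). Summed over the list, melanocytic markers had 30761 and 28198 normalized counts in the knockout and 33861 and 33220.2 in the parental libraries. SOX10 made up most of each sum. Fibroblast markers, 7 genes, summed to 2336 and 1384 against 1353 and 1299. COL1A2 and COL3A1 stayed at 3.51 or less, while 5 of the 7 passed the low-count filter, with a median log2 fold change of 0.26. Of those 5, both knockout libraries were higher for 2 (40%, against 22.8% of all tested genes) and lower for 0 (0%, against 23.7%). The 6 blood markers summed to 126 and 273 against 97.6 and 125 in the parental libraries. HBB was at 0, 4 of the 6 were under 10 in every library, and 2 passed the filter. Of these 2, both knockout libraries were higher for 1 (50%, against 22.8% of all tested genes) and lower for 0. Epithelial markers (7 genes) summed to 7088 and 6804 against 7742 and 7575, and endothelial markers (3 genes) to 75.8 and 79.1 against 55.9 and 62.3. Both knockout libraries were lower for 2 of 3 tested epithelial markers (66.7%, against 23.7% of all tested genes) and higher for 0. They were higher for 2 of 2 tested endothelial markers (100%, against 22.8%). The part of these marker genes in the values of EDA2R and GDF15 is taken up next. Their part in the values of EDA2R and GDF15 was not tested.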

How the data were processed

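Directional poly(A) libraries of A375 cells were sequenced, per the labels' protocols. Values in the deposited table are a normalized signal: the authors scaled read counts by a factor for each library. The submitters' processing notes name STAR, Picard, HTSeq, DESeq2 and deepTools, and build hg38; tool versions, annotation and counting settings are not given in the sources. Every value (100% per library, tolerance 0.001) was a whole multiple of a step, which gave back reads. Steps were within rounding of median-of-ratios factors up to a common scale, and gene length was not corrected. Knockout columns 2 and 8 could not be matched to the labelled replicate numbers and were used as unnumbered members of the group. Columns without a mapped sample numbered 0.

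Testing used limma 3.58.1 (trend, two-sided) on log2 of the normalized count plus a pseudocount of 1, for the 15431 genes reaching 10 in 2 or more libraries, adjusted after Benjamini-Hochberg (threshold 0.05); changes of low genes are understated. On the recovered reads, edgeR 4.0.16 (quasi-likelihood) and DESeq2 1.42.0 were alternatives. TMM scaling, total-read scaling, pseudocounts of 0.1 and 5, no filter, a minimum of 1 CPM and leaving out each library were others. The fits were run on simulated counts with the same dispersion for all genes and both groups. In the data, chi-square per degree of freedom was 61.6 in the knockout pair and 5.57 in the parental pair. The simulation therefore cannot tell how the fits behave with this unequal spread. Floors were 3 reads. Positions and exon lengths came from GENCODE 29 (23823 symbols with 1 locus) and promoters from RefSeq (GRCh38.p14). The motifs were picked after the promoter sequences had been read.

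The members and gene lists were chosen with earlier results of these data known. Named genes were CDKN1A, MDM2, the 4 members, genes of the EDA and GDF15 lists, the 3 highest and 3 most changed tested members of larger lists with a mean of at least 50, neighbours and nearest profiles. Other genes, such as TRIM22, PHLDA3 and TNFRSF14, were named after their values were seen. List counts leave out EDA2R and GDF15. Results for some genes, 1 of them dropped from the list of GDF15 regulators after values were seen, are not reported here.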

Additional observations from a re-analysis of the deposited data

How the results depend on the processing

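EDA2R and GDF15 kept their direction under each alternative run, with log2 fold changes of -3.23 to -2.999 and -1.78 to -1.61 with all libraries and -3.82 to -2.55 and -1.98 to -1.49 when each library was left out. EDA ranged between 0.38 and 1.43 when each library was left out. DESeq2 called 200 genes lower and 198 higher, against 0 for limma; leaving out each library, limma called 0 to 2602 lower and 0 to 2421 higher. The cause was not tested.

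Of 72 list medians recomputed with all libraries, 64 stayed within the spread between libraries. The median of the TNF receptors was -0.0025 with edgeR, -0.0031 with DESeq2, -0.0069 with total-read scaling and -0.081 without the filter, and -0.053 to 0.034 with each library left out. For TGF-beta superfamily ligands it was 0.16 with edgeR, 0.16 with DESeq2, 0.18 without the filter and 0.067 with a minimum of 1 CPM, and 0.049 to 0.20 with each library left out. With each library left out, the medians were 0.058 to 0.14 for EDA signalling, -0.44 to 0.019 for the GDF15 receptor and processing, 0.044 to 0.148 for GDF15 regulators, -0.28 to 0.45 for TNF ligands, -0.145 to -0.072 for p53-activated genes and 0.081 to 0.11 for ATF4 targets.

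No paired analysis was possible because the knockout columns carry the numbers 2 and 8 and the labelled replicates 1 and 2, so no column pairs with a parental one; the planned replicate block was not run. Leaving out a library leaves its group with 1, assumed to vary like the other group. At 3 to 12 reads, EDA is limited by depth.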
